A study of Homo sapiens with 18 samples.

Results

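The cytoplasmic arm of an SSB knockdown was examined in HEK293T cells, a human embryonic kidney line that carries the SV40 large T antigen. It comprised 6 of the 18 small RNA libraries: 3 from cells transfected with siRNA against SSB (siSSB) and 3 from cells given a scramble siRNA (control), each taken 48 h after transfection with a lipid reagent. The members were chosen by their sample titles, as the 3 siSSB and 3 control libraries of the cyto fraction with "Plus PNK" in the title. Both groups share the cell line, the transfection, the kit that separates cytoplasmic from nuclear RNA and the small RNA library kit, and the study describes the replicates as biological. p-values measure the spread between these libraries. HEK293T is a single line, and SSB was targeted by transient siRNA. The other 12 libraries, from nuclear and whole-cell RNA of the same siSSB and control conditions, are used only where a difference from the cytoplasm is tested or set beside it.

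SSB encodes La, an RNA-binding protein that holds the run of uridines at the 3′ end of RNAs just transcribed by RNA polymerase III (Pol III). Pol III makes tRNAs, 5S rRNA, 7SK, 7SL, Y RNAs, vault RNAs, U6 and the snaR RNAs, and it stops at a run of T in the gene, which leaves the uridines that La binds. La is known to protect precursor tRNAs from exonucleases while their 5′ leader, 3′ trailer and, where present, intron are removed, and mature tRNAs then leave the nucleus for the cytoplasm, where they serve translation.

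The values are whole-number read counts per row of an annotation of noncoding RNAs. Rows are described here from the shortest: those of at most 500 nt first, with rows of identical counts taken once. Of 28304 rows of at most 500 nt, 11173 held a count in the 6 cytoplasmic libraries, with 6049 different patterns of counts, and 1987 of these passed the filter on low counts and were tested. Over all lengths 18921 rows were tested. Column sums ran from 21565995 to 44712500 counts in control and from 24842041 to 28975535 in siSSB cyto, but reads in overlapping rows are counted in each of them. The sum over the small RNA classes, which is less inflated, ran from 2394473 to 4982546 and from 2779863 to 3228548 counts, and the deepest library was control replicate 3. A floor of 3 counts is at most 0.000125% of that sum, and covers counting error only. In bulk libraries, fewer cells that hold an RNA and less of it per cell cannot be told apart.

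The labelled cell line was checked against fixed marker lists, and lists of nuclear and cytoplasmic RNAs were compared between the groups. Of 11 microRNAs known in HEK293T (the MIR17 cluster, MIR10 and MIR196 genes), 11 were in the table and tested. Of 15 microRNAs of other cell types, 1 passed the filter (MIR9-1) and 8 had no count in any of the 6 libraries, including the blood cell genes MIR142, MIR223, MIR144 and MIR451A. The summed level of 16 nuclear RNAs (snoRNAs, scaRNAs, MALAT1, NEAT1 and others) was 768 to 1100 CPM in control (CPM are counts scaled to a common library total) and 833 to 1220 CPM in siSSB cyto, with overlapping ranges. Of those 16, 0 passed the test (edgeR, adjusted p under 0.05) and 0 had an unadjusted p under 0.05. RNU12 weighed most in the sum, with 14761 counts in control replicate 1, where MALAT1 held 475 and NEAT1 450. The sum was not set beside the nuclear libraries, so it does not check the fraction label. A list of 29 cytoplasmic RNAs, mostly mitochondrial tRNAs, summed to 10500 to 12800 CPM in control and 12000 to 12700 CPM in siSSB, and 1 of its members passed the test (VTRNA1-1). The table holds no row for SSB mRNA by name, so the knockdown itself was not measured and siSSB names libraries by their label.

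The direct comparison asks which cytoplasmic small RNAs were lower or higher after SSB knockdown. In the cytoplasm 55 rows changed, 0.291% of the 18921 tested (quasi-likelihood F-test of edgeR, adjusted p under 0.05). Of these, 51 (0.27%) fell and 4 (0.0211%) rose. At an unadjusted p under 0.05, 4.51% of all rows were lower and 2.16% higher, and the ranges of the groups were apart with siSSB lower in 7.53% and higher in 5.96%. Among rows of at most 500 nt 24 of 1987 fell, which is 1.21%, and 0 rose. Of the 24, 19 were tRNA rows with 16 names, 2 were vault RNAs, 1 was tRX-Cys-NNN-4-1, a tRNA-like gene, and 2 were lncRNA rows that held at least 95.9% of their counts in a tRNA inside them. The remaining 22 rows had log2 fold changes of −2.68 to −1.53, with a median of −2.05. The plot of levels by library shows the rows that met the naming rule.

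**Figure D1:**
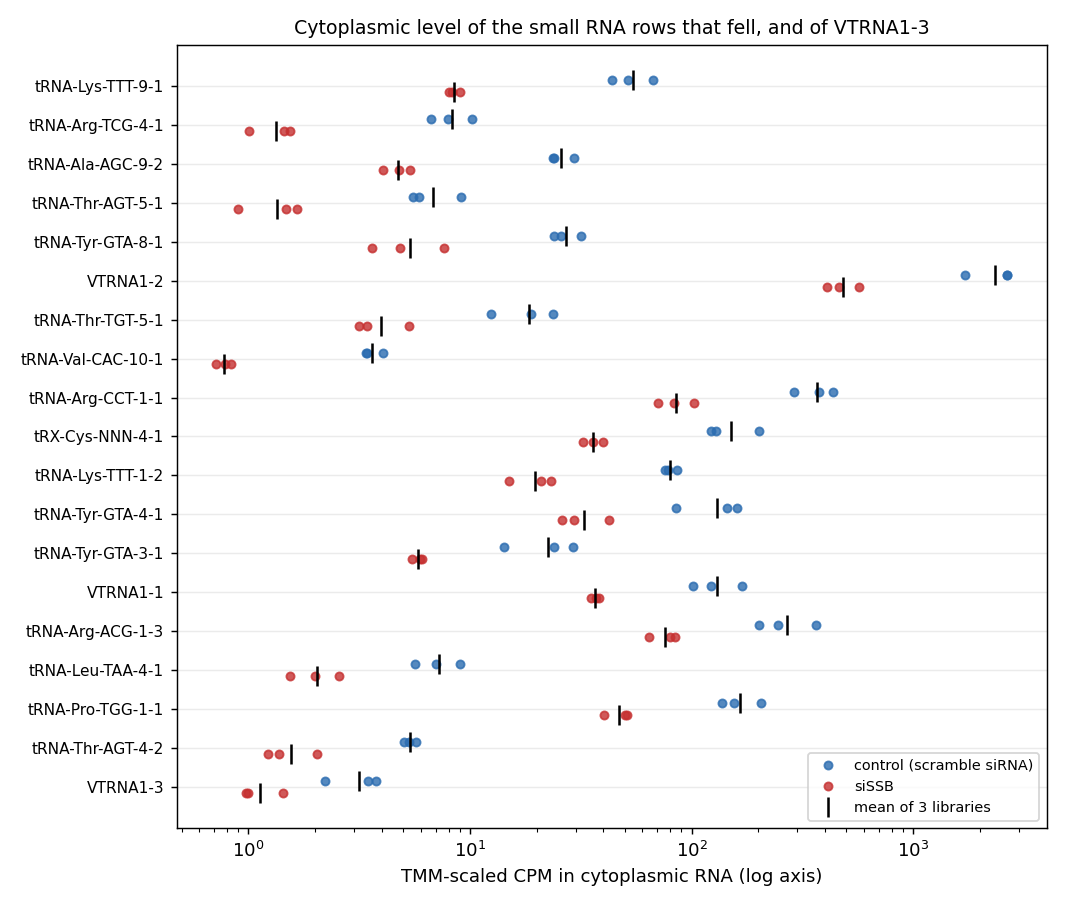
Level of each row in the 3 control (blue) and 3 siSSB (red) cytoplasmic libraries, as TMM-scaled CPM on a log axis, with the mean of each group as a black bar. The groups do not overlap in any row drawn, which the naming rule required of each row except VTRNA1-3. VTRNA1-3 is drawn beside the rows that fell although its adjusted p was 0.0709.

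How many rows fell rested on single libraries and on the scaling. Of rows of all lengths 51 fell, but 0 fell without siSSB cyto replicate 1, 1 without control cyto replicate 1, 4 without control cyto replicate 2, 5 without siSSB cyto replicate 2, 28 without control cyto replicate 3 and 41 without siSSB cyto replicate 3. The number that rose was 4 with all 6 libraries and 2 to 5 without 1 library. With the snoRNA total as the scale 0 rows fell and 3 rose. The number of tRNA rows that fell was 19, but 0 without siSSB cyto replicate 1, 1 without control cyto replicate 1, 3 without control cyto replicate 2, 5 without siSSB cyto replicate 2, 11 without control cyto replicate 3 and 13 without siSSB cyto replicate 3. With the miRNA total as the scale it was 34 and with the snoRNA total 0, and 0 tRNA rows rose in either case. Among the named tRNA, tRX and vault rows that fell, the call was lost in 3 of 16 alternatives for tRNA-Val-CAC-10-1 and in 12 of 16 for VTRNA1-1, tRNA-Tyr-GTA-3-1, tRNA-Arg-ACG-1-3 and tRNA-Leu-TAA-4-1, with the others between, and no direction changed.

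The vault RNAs are short Pol III transcripts named for the vault particle, a large cytoplasmic ribonucleoprotein. VTRNA1-2 held 64379, 37925 and 95327 counts in control libraries and 14442, 10932 and 15992 in siSSB replicates 1 to 3. Each siSSB library was below each control library also after scaling, with 2330 ± 541 CPM (SD, n = 3) against 482 ± 83.6 CPM, a log2 fold change of −2.28 ± 0.29 (SE; edgeR adjusted p = 0.0273). VTRNA1-1 held 2975, 2233 and 6062 counts in control and 1147, 941 and 1069 in siSSB, with a log2 fold change of −1.83 ± 0.28 (edgeR adjusted p = 0.0342). The VTRNA1-1 call was lost without any 1 of the 6 libraries (−2.00 to −1.54) and when rows of at most 500 nt were fitted alone (−1.65), and the VTRNA1-2 call was lost without control replicate 1 (−2.17), siSSB replicate 1 (−2.25) or siSSB replicate 2 (−2.18). The siSSB libraries lay close together at 36.8 ± 1.59 CPM, below the control libraries at 130 ± 34.8 CPM.

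VTRNA1-3, the least abundant of the cluster on chromosome 5, held 85, 49 and 135 counts against 31, 26 and 40. Its ranges did not overlap, and its log2 fold change of −1.48 ± 0.28 did not pass the test (edgeR adjusted p = 0.0709). The VTRNA3-1P row on the X chromosome, a vault pseudogene, had 44, 20 and 56 counts in control and 12, 9 and 17 in siSSB and missed it likewise (−1.68 ± 0.35, edgeR adjusted p = 0.0985). VTRNA2-1, whose row lies elsewhere on chromosome 5, was below the filter with at most 28 counts. The share of vault RNA in the class sum was 1.68 to 2.39% in control and 0.427 to 0.616% in siSSB libraries, without overlap.

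The 3 VTRNA1 genes are printed here (hg38) because their 3′ ends, where La binds, differ. Each sequence is the gene as GENCODE gives it and the 10 bases after it, 5′ to 3′, with the first run of at least 4 T in the last 20 bases in capitals.
VTRNA1-1, chr5:140711275-140711383 (+ strand): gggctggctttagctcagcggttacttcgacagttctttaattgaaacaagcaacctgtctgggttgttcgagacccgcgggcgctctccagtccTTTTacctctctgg
VTRNA1-2, chr5:140718925-140719023 (+ strand): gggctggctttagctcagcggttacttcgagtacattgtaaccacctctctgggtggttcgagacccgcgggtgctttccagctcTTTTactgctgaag
VTRNA1-3, chr5:140726158-140726256 (+ strand): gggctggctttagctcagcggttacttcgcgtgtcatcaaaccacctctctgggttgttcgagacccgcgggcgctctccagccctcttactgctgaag
The annotated genes VTRNA1-1 and VTRNA1-2 end in TTTT. VTRNA1-3 has no such run in the sequence printed. For VTRNA1-1 the row chr5:140711251-140711398 was counted, for VTRNA1-2 chr5:140718901-140719038 and for VTRNA1-3 chr5:140726134-140726271.

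The tRNA rows as a group were lower in siSSB cytoplasm. Of 486 tRNA rows with counts 442 were tested, 435 of them had a log2 fold change below 0 and the median was −0.61, against −0.11 for the rows of at most 500 nt and 0.01 for all rows tested. The number below 0 depends on the scaling, with 332 under the snoRNA total, 398 under the class total and 442 under the miRNA total. Of the 442, 19 fell (4 at an adjusted p under 0.01), and 187 (42.3%) were lower and 0 higher at an unadjusted p under 0.05. Over the rows of at most 500 nt 12.6% were lower and 2.11% higher at that threshold. The siSSB and control ranges did not overlap, with siSSB lower, in 219 tRNA rows, while 15.5% of the rows of at most 500 nt were separated in that direction and 4.03% in the other. The share of tRNA in the class sum was 30.1, 28.3 and 27.3% in control and 22.4, 20.1 and 24.6% in siSSB libraries. The ranges do not overlap. Many tRNA genes have near-identical copies that share reads, so neighbouring rows are not independent.

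**Figure D2:**
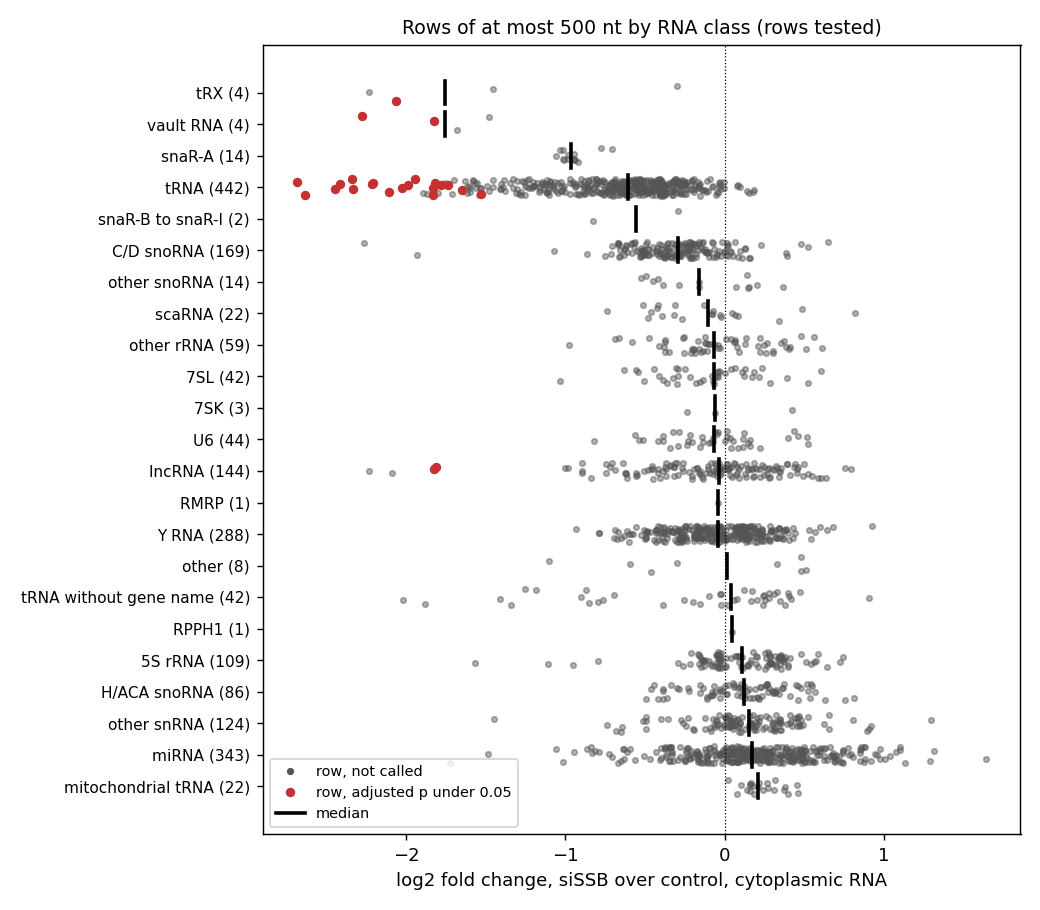
Log2 fold change (siSSB over control, cytoplasmic RNA) of each tested row of at most 500 nt, by RNA class, with the number of rows in brackets. Red points passed the test, and the black bars are class medians, −0.61 for tRNA, −0.97 for snaR-A, 0.17 for miRNA and −0.04 for Y RNA.

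The tRNAs that fell most were single genes of several isotypes. tRNA-Lys-TTT-9-1, a gene for a tRNA that reads lysine codons (chr6:27576042-27576164), held 1260, 973 and 2419 counts in control and 258, 215 and 251 in siSSB. The control libraries lay at 51.6, 43.8 and 67.3 CPM, all above the siSSB libraries at 8.44 ± 0.496 CPM (SD, n = 3), with a log2 fold change of −2.68 ± 0.28 (edgeR adjusted p = 0.00991). tRNA-Arg-TCG-4-1, an arginine tRNA gene (chr6:26299652-26299774), held 195, 148 and 367 against 45, 27 and 43 counts. It fell by 2.63 ± 0.29 on the log2 scale (edgeR adjusted p = 0.0105), and its siSSB libraries lay at 1.33 ± 0.284 CPM.

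Both copies of tRNA-Ala-AGC-9-2, an alanine tRNA gene, fell together. The copy at chr6:26730509-26730631 held 577, 534 and 1059 against 148, 108 and 150 counts, and the copy at chr6:26771055-26771177 held 577, 504 and 1064 against 139, 121 and 147. Their gene sequences are identical, so reads inside the gene cannot be divided between them, and their log2 fold changes were −2.44 ± 0.27 and −2.41 ± 0.26 (edgeR adjusted p = 0.00991 for each).

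tRNA-Val-CAC-10-1, a valine tRNA gene on chromosome 1, was low in level but even between replicates. The row held 99, 76 and 122 counts in control and 26, 21 and 20 in siSSB, or 3.62 ± 0.376 against 0.779 ± 0.0605 CPM, a log2 fold change of −2.21 ± 0.23 (edgeR adjusted p = 0.00991). tRNA-Thr-AGT-5-1, a threonine tRNA gene (chr17:8139427-8139550), held 144, 202 and 198 against 46, 24 and 46 counts (−2.34 ± 0.32, edgeR adjusted p = 0.0331).

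The most abundant tRNA rows that fell read arginine codons. tRNA-Arg-CCT-1-1 (chr17:75034406-75034528) held 9153, 6420 and 15650 counts in control and 2189, 2222 and 2845 in siSSB. Its level fell from 367 ± 73.5 to 85.1 ± 15.8 CPM, a log2 fold change of −2.11 ± 0.28 (edgeR adjusted p = 0.0305). tRNA-Arg-ACG-1-3 (chr6:26328115-26328237) held 6002, 4475 and 13065 against 1985, 2141 and 2342 counts and fell by 1.83 ± 0.30 on the log2 scale (edgeR adjusted p = 0.0477). At an unadjusted p under 0.05, lower rows made up 43.5% of the 69 tRNA rows with a mean under 50 counts, 47.4% of the next 251 rows by level and 31.1% of the 122 most abundant rows.

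tRNA-Tyr genes, most of which carry an intron that is spliced out of the precursor, had the lowest isotype median. All 13 tested tRNA-Tyr rows were below 0, with a median of −1.41 and a range of −2.33 to −0.41, 12 had an unadjusted p under 0.05 and 3 passed the adjusted test. tRNA-Tyr-GTA-8-1 (chr6:26575545-26575684) held 771, 572 and 860 counts in control and 150, 97 and 214 in siSSB, with a log2 fold change of −2.33 ± 0.33 (edgeR adjusted p = 0.0331). tRNA-Tyr-GTA-4-1 on chromosome 14 held 3515, 1891 and 5755 against 812, 793 and 1190 (−1.99 ± 0.33, edgeR adjusted p = 0.0495). tRNA-Tyr-GTA-3-1 on chromosome 6 held 586, 316 and 1052 against 171, 159 and 170 (−1.95 ± 0.31, edgeR adjusted p = 0.0477). In each of these the highest siSSB library stayed below the lowest control library after scaling, which the naming rule required. The most abundant tyrosine row, tRNA-Tyr-GTA-2-1, had overlapping ranges, with 9069, 5762 and 9414 against 3604, 3145 and 7261 counts, and did not pass (−0.86 ± 0.36, edgeR adjusted p = 0.658).

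Threonine and lysine followed. Of 20 tRNA-Thr rows 4 fell, with a median of −1.13, and 1 row, tRNA-Thr-CGT-6-1, was above 0 with 68, 24 and 79 against 26, 44 and 125 counts (0.18 ± 0.54, edgeR adjusted p = 0.99). tRNA-Thr-TGT-5-1 held 461, 278 and 857 counts in control and 107, 85 and 148 in siSSB (−2.21 ± 0.34, edgeR adjusted p = 0.0365). Of 27 tRNA-Lys rows 3 fell, with a median of −1.07. The 3 had the anticodon TTT, whose 13 rows had a median of −1.49, while the 14 rows with CTT had a median of −0.68.

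The other isotypes had higher medians, from −0.96 for isoleucine (18 rows, 15 of them lower at an unadjusted p under 0.05, 0 past the adjusted test) through −0.68 for arginine (27 rows, 3 fell), −0.67 for proline (20 rows, 2 fell), −0.63 for alanine (43 rows, 2 fell) and −0.62 for leucine (30 rows, 1 fell) to −0.31 for valine (33 rows, 1 fell). tRNA-Leu-TAA-4-1 was the leucine row, with 171, 125 and 325 against 62, 69 and 43 counts (−1.83 ± 0.30, edgeR adjusted p = 0.0493). Tyrosine had the lowest median, then threonine, lysine and isoleucine, under each of the 6 scalings tried. Scaling moves all rows by nearly the same amount, so this order could hardly change and the scalings do not test it.

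At the other end were the methionine tRNAs. The 9 initiator (iMet) rows had a median of −0.11 and the 10 elongator (Met) rows one of −0.03, with 0 of 19 past the adjusted test and 0 at an unadjusted p under 0.05. The initiator tRNA starts translation. Its most abundant row, tRNA-iMet-CAT-1-6 at chr1:153671225-153671346, held 524, 319 and 473 counts in control and 270, 227 and 537 in siSSB (−0.43 ± 0.37, edgeR adjusted p = 0.898), with overlapping ranges. Its siSSB replicate 3 was above each control library in counts. The ranges of the isotypes overlap, from −0.60 to 0.14 for iMet and from −2.33 to −0.41 for tyrosine, and no test of a difference between isotypes was made. Both methionine medians turned positive under scaling to library size, the class total or the snoRNA total (0.14 to 0.36), and the elongator median also under DESeq2 size factors (0.01). In whole-cell RNA of the same conditions the medians were −1.0 for iMet (9 rows) and −0.65 for Met (10 rows), against −0.84 for all tRNA rows. In the nucleus they were 0.13 (8 rows) and 0.41 (4 rows), against −0.35.

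**Figure D3:**
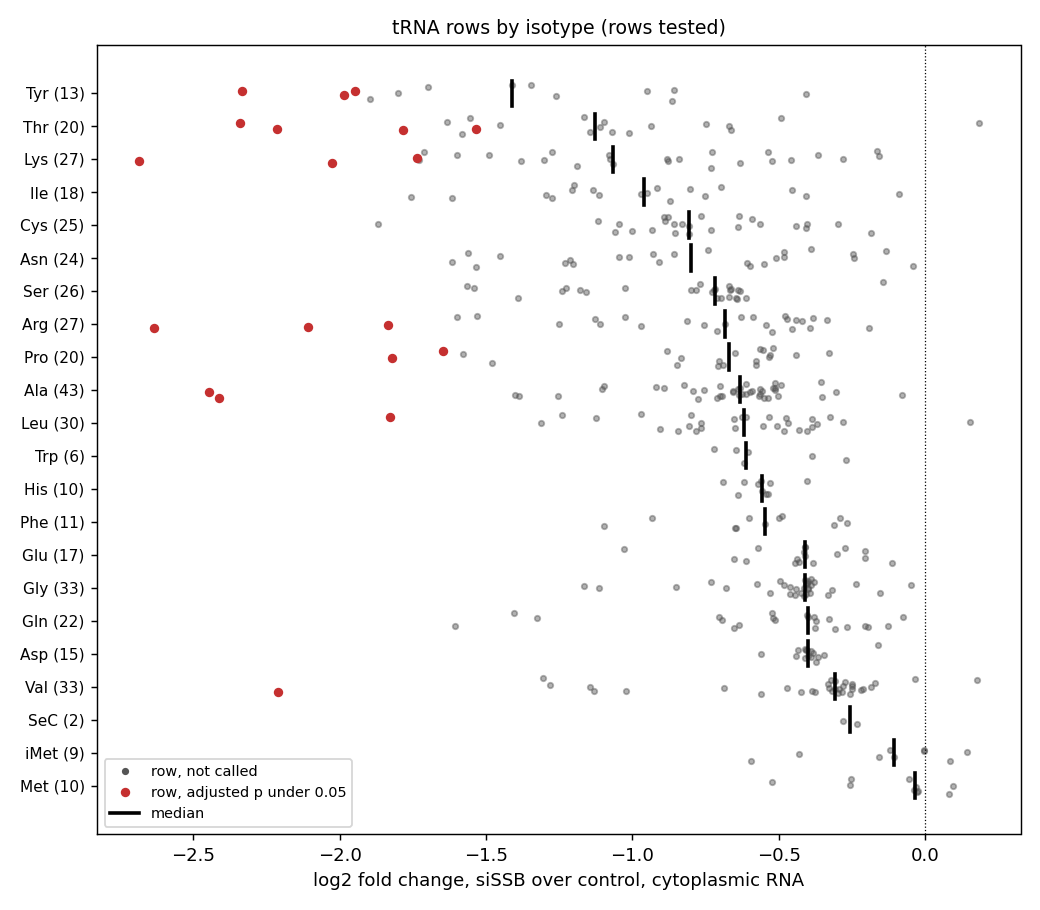
Log2 fold change (siSSB over control, cytoplasmic RNA) of each tested tRNA row by isotype, in order of the median (black bar), with the number of rows in brackets. Red points passed the test. The medians run from −1.41 for tyrosine to −0.03 for elongator methionine.

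tRNA rows that held the same gene sequence did not always hold the same change. Of 78 tRNA names with more than 1 tested row, 51 had 1 gene sequence in each of their rows, and within those the log2 fold changes differed by a median of 0.2 and by at most 1.4. Each row reaches 25 nt beyond the gene on both sides, so it also takes reads of the leader and trailer, which differ between copies, while reads inside the gene cannot tell the copies apart. How many reads lay in the flanks cannot be read from these counts.

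The widest ranges were those of tRNA-Asn-GTT-1-6 (8 rows, −1.54 to −0.13) and tRNA-Arg-CCG-1-2 (3 rows, −1.53 to −0.19), in which 0 rows passed the test. Sets of lysine, proline and arginine genes, in which at least 1 copy passed, are printed with their 3′ flanks, as the last 10 bases of the gene and the 30 bases after it (hg38, 5′ to 3′ on the strand of the gene), with the first run of at least 4 T in capitals. RefSeq names them apart, whereas the table gives each set 1 name. The 5 copies named tRNA-Lys-TTT-1-2 in the table were:
TRK-TTT3-3, chr6:28951092-28951131 (+ strand): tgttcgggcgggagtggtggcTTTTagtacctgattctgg
TRK-TTT3-4, chr11:59560305-59560344 (- strand): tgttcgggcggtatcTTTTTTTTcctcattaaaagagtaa
TRK-TTT3-5, chr17:8119218-8119257 (+ strand): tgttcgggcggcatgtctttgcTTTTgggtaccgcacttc
TRK-TTT3-2, chr1:204507000-204507039 (- strand): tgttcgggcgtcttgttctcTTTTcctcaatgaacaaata
TRK-TTT3-1, chr1:204506590-204506629 (+ strand): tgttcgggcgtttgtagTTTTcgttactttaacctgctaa
TRK-TTT3-3 on chromosome 6 held 1903, 1685 and 3101 counts in control and 717, 402 and 583 in siSSB (−2.03 ± 0.27, edgeR adjusted p = 0.0305). TRK-TTT3-4 held 1597, 1025 and 2510 against 511, 457 and 585 and fell by 1.74 ± 0.27 on the log2 scale (edgeR adjusted p = 0.043). The other copies did not pass, with −1.07 ± 0.28 for TRK-TTT3-5, −0.88 ± 0.30 for TRK-TTT3-2 and −0.84 ± 0.31 for TRK-TTT3-1. TRK-TTT3-1 was about as abundant as the copies that fell, with 1654, 1234 and 4132 counts in control and 1331, 1263 and 1209 in siSSB. A T run lies within 15 bases of the gene in each of the 5 copies.

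The 5 proline copies of 1 gene sequence, named tRNA-Pro-TGG-1-1 in the table, were:
TRP-TGG3-3, chr16:3158984-3159023 (+ strand): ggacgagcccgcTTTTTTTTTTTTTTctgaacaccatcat
TRP-TGG3-1, chr5:181188824-181188863 (- strand): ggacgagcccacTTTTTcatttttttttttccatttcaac
TRP-TGG3-2, chr14:20684078-20684117 (+ strand): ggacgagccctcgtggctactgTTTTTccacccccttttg
TRP-TGG3-5, chr16:3188156-3188195 (+ strand): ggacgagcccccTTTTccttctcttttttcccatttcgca
TRP-TGG3-4, chr16:3184103-3184142 (- strand): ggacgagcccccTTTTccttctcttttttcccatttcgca
TRP-TGG3-3 held 2159, 1398 and 3645 counts in control and 817, 637 and 857 in siSSB and fell (−1.65 ± 0.28, edgeR adjusted p = 0.0498). TRP-TGG3-1 just missed the threshold, with 2293, 1665 and 4325 against 1071, 889 and 1006 (−1.48 ± 0.27, edgeR adjusted p = 0.0624). TRP-TGG3-2 had −0.88 ± 0.29, TRP-TGG3-5 −0.69 ± 0.27 and TRP-TGG3-4 −0.55 ± 0.26. The last pair share the printed flank as well. A further row of that name on chromosome 14, with another gene sequence (TRP-TGG1-1), fell from 166 ± 34.6 to 47.1 ± 6.10 CPM (−1.82 ± 0.27, edgeR adjusted p = 0.0331), and no run of 4 T lies in the 40 bases after it.

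The 3 arginine copies named tRNA-Arg-ACG-1-3 differed in level as well as in change:
TRR-ACG1-1, chr6:26328203-26328242 (+ strand): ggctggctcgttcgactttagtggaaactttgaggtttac
TRR-ACG1-2, chr6:26537561-26537600 (+ strand): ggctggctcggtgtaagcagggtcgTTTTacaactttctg
TRR-ACG1-3, chr14:22929764-22929803 (+ strand): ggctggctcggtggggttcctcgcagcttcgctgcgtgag
TRR-ACG1-1, with the counts given above, fell. The first run of 4 T after TRR-ACG1-3 lies beyond the printed bases. TRR-ACG1-2 held 53, 39 and 100 against 29, 37 and 43 counts (−0.81 ± 0.28, edgeR adjusted p = 0.47), and TRR-ACG1-3 held 102, 102 and 225 against 106, 106 and 83 (−0.54 ± 0.26, edgeR adjusted p = 0.783). Neither of those passed the test. A similar pair was tRNA-Thr-AGT-4-2, whose copy at chr6:27684670-27684793 fell (−1.78 ± 0.26, edgeR adjusted p = 0.0331) and whose copy at chr6:26532892-26533015, of identical gene sequence, did not pass (−0.75 ± 0.29, edgeR adjusted p = 0.608).

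Because La binds the uridines at the end of the transcript, the 3′ flanks of the tRNA genes were searched for the first run of at least 4 T (TTTT or longer, on the strand of the gene only) in the 40 bases after the gene. A run began in bases 1 to 15 for 329 of the 442 tested rows (74.4%), in bases 16 to 40 for 55 (12.4%) and nowhere in the window for 58 (13.1%). Among the 19 rows that fell the numbers were 10 (52.6%), 3 (15.8%) and 6 (31.6%). The 6 include both copies of tRNA-Ala-AGC-9-2, and the 10 both copies of tRNA-Lys-TTT-1-2 that fell. Copies of 1 gene sequence share reads inside the gene, so they are not separate measurements. The medians of all tested rows, in the same order, lay close together, at −0.59, −0.66 and −0.60. Those with a first run of 4, of 5 and of 6 or more T had medians of −0.63 (248 rows), −0.55 (76 rows) and −0.53 (60 rows). Rows that fell and that have an early run, and then rows that fell and have none in the window, are shown here as examples, with the last 10 bases of the gene, the 30 bases after it and the first run in capitals:
tRNA-Lys-TTT-9-1, chr6:27576130-27576169 (+ strand): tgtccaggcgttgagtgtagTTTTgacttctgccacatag
tRNA-Arg-TCG-4-1, chr6:26299740-26299779 (+ strand): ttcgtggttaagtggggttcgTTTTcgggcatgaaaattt
tRNA-Tyr-GTA-8-1, chr6:26575650-26575689 (+ strand): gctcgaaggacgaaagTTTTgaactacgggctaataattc
tRNA-Ala-AGC-9-2, chr6:26730597-26730636 (+ strand): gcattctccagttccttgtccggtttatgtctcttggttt
tRNA-Thr-AGT-5-1, chr17:8139422-8139461 (- strand): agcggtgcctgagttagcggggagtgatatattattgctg
tRNA-Leu-TAA-4-1, chr6:27230525-27230564 (- strand): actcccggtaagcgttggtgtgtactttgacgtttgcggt
For comparison, the most abundant initiator methionine row, which did not pass the test, was:
tRNA-iMet-CAT-1-6, chr1:153671312-153671351 (+ strand): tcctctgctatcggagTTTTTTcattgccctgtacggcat
The first 3 rows have a run of 4 T that starts 7 to 12 bases after the gene, and tRNA-Ala-AGC-9-2, tRNA-Thr-AGT-5-1 and tRNA-Leu-TAA-4-1 have none. A match of these letters is a description and not a mapped end of the transcript. Of the 19 rows that fell 11 (57.9%) lie on chromosome 6, which holds 160 of the 442 tested tRNA rows (36.2%).

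tRX genes are tRNA-like genes outside the high-confidence set. tRX-Cys-NNN-4-1 (chr7:149628128-149628260) held 3155, 2705 and 7226 counts in control and 1237, 962 and 902 in siSSB, a fall from 151 ± 43.7 to 36.0 ± 3.76 CPM (−2.07 ± 0.29, edgeR adjusted p = 0.0331). Of the other tRX rows tRX-Gln-NNN-3-1 held 49, 26 and 104 against 9, 15 and 13 counts and just missed the threshold (−2.23 ± 0.39, edgeR adjusted p = 0.0539). tRX-Tyr-NNN-1-1 had −1.45 ± 0.51 (edgeR adjusted p = 0.508) and tRX-Glu-NNN-2-1 had −0.30 ± 0.30 (edgeR adjusted p = 0.914).

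The other single-copy Pol III RNAs did not pass the test in the cytoplasm. RNY1, a Y RNA, the family bound by the Ro protein, held 65990, 56364 and 106944 counts in control and 69926, 72111 and 73858 in siSSB. Its level was 2740 ± 221 CPM against 2530 ± 242 CPM, with overlapping ranges (−0.12 ± 0.24, edgeR adjusted p = 0.984). RNY3, RNY4 and RNY5 had log2 fold changes of 0.04 ± 0.27, −0.03 ± 0.26 and 0.02 ± 0.31. RNY4 lay at 3340 ± 826 CPM in control and 3260 ± 164 CPM in siSSB libraries. The share of Y RNA in the class sum was 10.1 to 11.1% in control and 11.8 to 13.4% in siSSB libraries, without overlap. The 7SL and H/ACA snoRNA shares were also higher without overlap. Shares are parts of 1 total, so they also rise when the tRNA share falls.

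The Y RNA genes also carry a T run at the end. RNY1 and RNY4 are printed as examples of genes whose rows did not pass, as the last 25 bases of the gene and the 10 bases after it, with the first run of at least 4 T in the last 20 bases in capitals:
RNY1, chr7:148987126-148987160 (- strand): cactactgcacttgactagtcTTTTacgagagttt
RNY4, chr7:148963386-148963420 (+ strand): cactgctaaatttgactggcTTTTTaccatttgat
RN7SK, which holds back the elongation factor P-TEFb, had −0.23 ± 0.26, RMRP, the RNA of RNase MRP, −0.04 ± 0.26, and RPPH1, the RNA of RNase P that removes tRNA leaders, 0.05 ± 0.29 (edgeR adjusted p = 0.918, 0.994 and 0.994). RPPH1 held 1138, 942 and 2473 counts in control and 1624, 1821 and 1197 in siSSB. RN7SL1, the RNA of the signal recognition particle, and RNA5S8, a 5S rRNA copy, had −0.04 ± 0.27 and −0.03 ± 0.27. BCYRN1, RNU6ATAC and VTRNA2-1 were below the count filter.

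The snaR-A copies, small Pol III RNAs of near-identical sequence on chromosome 19, did not pass the test in the cytoplasm. The table names many of these rows SNAR-A14. The one with the highest mean, at chr19:47923754-47923924, where RefSeq places SNAR-A3, held 1490, 1453 and 2930 counts in control and 1353, 1283 and 317 in siSSB. siSSB replicate 3 was far below the other siSSB libraries, and the ranges did not overlap after scaling (−1.02 ± 0.46, edgeR adjusted p = 0.753). All 14 rows were below 0, from −1.06 to −0.70, and 3 had an unadjusted p under 0.05. They share reads, so they are not separate measurements. The share of snaR-A in the class sum was 0.298% and 0.326% in siSSB replicates 1 and 2 but 0.0800% in replicate 3, and 0.363 to 0.423% in control.

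Among RNAs that are mostly not made by Pol III, 0 rows of the miRNA, snoRNA and mitochondrial tRNA classes changed. Of 343 miRNA rows 0 passed the adjusted test, 28 were higher and 8 lower at an unadjusted p under 0.05, and the median was 0.17. The largest miRNA, MIR148A, was uneven within both groups, with 28720, 25263 and 9834 counts in control and 20883, 7763 and 49750 in siSSB (0.08 ± 0.65, edgeR adjusted p = 0.994). The share of miRNA in the class sum overlapped between the groups (6.73 ± 2.22% in control and 8.65 ± 3.20% in siSSB, SD, n = 3). C/D snoRNAs, guides of 2′-O-methylation, had a median of −0.29 over 169 rows with 0 called, and H/ACA snoRNAs, guides of pseudouridylation, one of 0.12 over 86 rows with 0 called. The 22 mitochondrial tRNAs, which are made inside mitochondria by another polymerase, were each above 0 under TMM, from 0.02 to 0.46, with 0 called. Their share of the class sum was 3.22 ± 0.856% in control and 4.66 ± 0.225% in siSSB libraries, without overlap. This share, too, rises when the tRNA share falls.

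The direction of these class medians depends on the scaling, since counts are relative. The median of all rows moved from 0.01 under TMM to 0.05 under DESeq2 size factors, 0.21 with library size alone, 0.24 with the class total, 0.39 with the snoRNA total and −0.11 with the miRNA total. The tRNA median was below 0 under each of the 6, from −0.75 to −0.20, and lay 0.59 to 0.63 below the median of all rows each time. That distance could hardly change, since scaling moves all rows by nearly the same amount. The C/D snoRNA median turned positive under the snoRNA total (0.09).

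**Figure D4:**
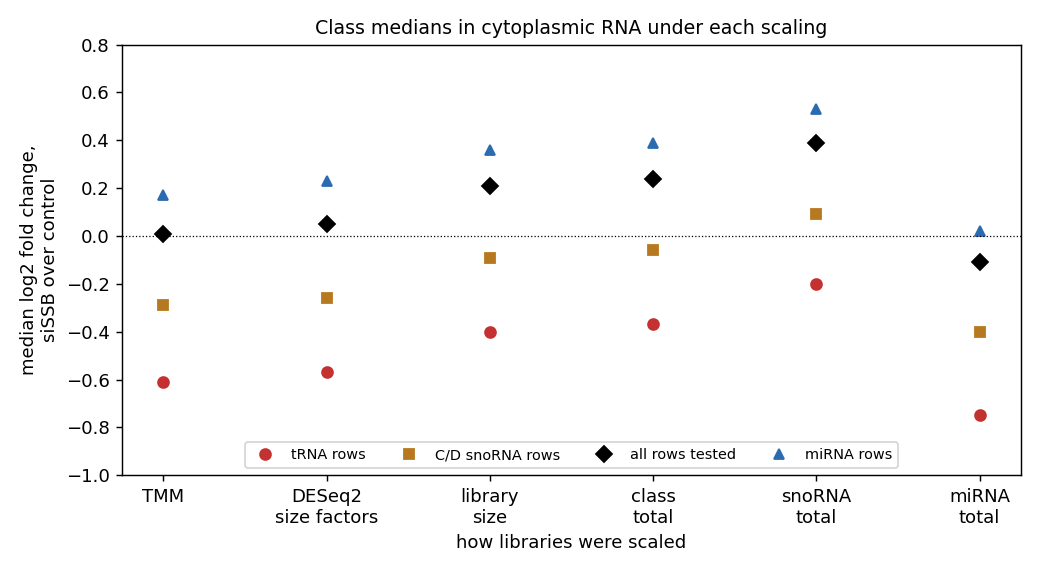
Median log2 fold change (siSSB over control, cytoplasmic RNA) of the tRNA, C/D snoRNA, miRNA and all tested rows when libraries were scaled in 6 ways. The tRNA median is the lowest of the 4 under each scaling and runs from −0.75 to −0.20. Scaling moves the 4 medians by nearly the same amount, so it does not test their order.

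Rows over 500 nt need more care, because they hold the reads of small RNAs inside them. Of 31 such rows that changed, 7 had at least 50% of their counts in a row of at most 500 nt inside them, 20 others fell and 4 rose. Rows that fell overlap each other at several places, among them ZBTB20, LIMD1-AS1, C1QTNF6 and LINC02260. They share reads there, so the 20 are not separate transcripts. The 50% rule counts only small rows wholly inside. A row that begins within a tRNA row, as NONHSAG043240.2 does, can hold tRNA reads that the rule leaves out. Of the rows that fell, 8 met the criteria of the naming rule, and the 5 with the largest fold change, which the rule names, are given here. lnc-C11orf24-4, a lncRNA row of 502 nt (chr11:68459749-68460250), held 133, 121 and 274 counts in control and 35, 44 and 41 in siSSB (−2.13 ± 0.27, edgeR adjusted p = 0.0273). lnc-C1QTNF6-1, which overlaps exons of C1QTNF6 on chromosome 22, held 369, 240 and 576 against 109, 84 and 103 (−2.02 ± 0.27, edgeR adjusted p = 0.0305).

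HSALNG0085924 on chromosome 11 held 670, 388 and 586 against 114, 78 and 180 counts (−2.23 ± 0.37, edgeR adjusted p = 0.0496). ZBTB20-AS5 on chromosome 3, antisense to ZBTB20, held 128, 120 and 111 against 27, 31 and 36 (−2.04 ± 0.30, edgeR adjusted p = 0.0331). The overlapping row NONHSAG035787.2 had nearly the same counts, with 139, 132 and 122 against 39, 38 and 39. In each of these 5 rows the groups did not overlap, which the naming rule required. Reads were counted without regard to strand, so those of overlapping genes cannot be told apart.

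The 4 rows that rose were all over 500 nt, and 2 of them lay on SSB sequence. lnc-PRKAB2-5 (chr1:147082313-147083603), which coincides with the SSB pseudogene SSBL4P, held 6, 3 and 7 counts in control and 2493, 750 and 2108 in siSSB, with a log2 fold change of 8.28 ± 0.56 (edgeR adjusted p = 0.000783). HSALNG0020274 (chr2:169806811-169811069), over exons of SSB and of METTL5, held 32, 25 and 30 against 3145, 983 and 3304 (6.29 ± 0.52, edgeR adjusted p = 0.00243). siSSB replicate 2 was the lowest siSSB library in both rows. The longest stretch that lnc-PRKAB2-5 shares exactly with the full-length SSB mRNA is 63 nt (chr1:147083502-147083564). A row over the last SSB exon on the other strand, lnc-CCDC173-3, was below the filter with 8, 7 and 14 against 1, 7 and 2 counts.

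The other rows that rose overlap each other on chromosome 10, in the LINC02929 and ZNF365 region, so they share reads. AC067752.1 (chr10:62520423-62672036) held 5, 3 and 8 counts in control and 129, 46 and 119 in siSSB (4.11 ± 0.44, edgeR adjusted p = 0.00991), and AC024598.1 held 5, 3 and 20 against 131, 52 and 124 (3.43 ± 0.48, edgeR adjusted p = 0.0331). They share no more than 14 nt in a row with SSB mRNA. siSSB replicate 2 again held the fewest counts of the siSSB libraries.

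The last question was whether the change in the cytoplasm differed from that in whole-cell or nuclear RNA of the same conditions. Against whole-cell RNA 0 of 29127 rows differed (edgeR interaction test, adjusted p under 0.05), with 1089 (3.74%) at an unadjusted p under 0.05 and 0 called by DESeq2 (0.0% at the adjusted threshold). Of rows of at most 500 nt 5.16% had an unadjusted p under 0.05. Against the nucleus 5 of 37493 rows differed (0.0133%), with 1837 (4.9%) at an unadjusted p under 0.05 and 3 called by DESeq2. Of rows of at most 500 nt 1 differed (0.0396%) and 9.26% had an unadjusted p under 0.05. The 5 became 24 without control cyto replicate 3, 21 and 14 without siSSB cyto replicates 3 and 2, 8 without control cyto replicate 1, 2 without control nuc replicate 1 or 2 or siSSB nuc replicate 2, 3 without siSSB nuc replicate 1 and 1 without control nuc replicate 3.

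The 22 small rows that fell in the cytoplasm can be set beside their values in the other comparisons. Those values are a description, since the rows were picked on the cytoplasm. All 22 were tested in whole-cell RNA, with a median of −1.78 (−2.58 to −0.84) and 16 called lower there. In that comparison 67 of 1761 rows of at most 500 nt and 43 of 436 tRNA rows were called lower. Over all lengths 1.34% of 13883 rows changed there in either direction. In the nucleus 0.378% of 6873 rows of all lengths changed, and 20 of 1169 rows of at most 500 nt and 1 of 316 tRNA rows were called lower. Of the 22 rows 15 passed the filter there, with a median of −0.83 (−2.18 to 1.59), 13 below 0 and 4 called lower. The 4 were VTRNA1-1, VTRNA1-2, tRX-Cys-NNN-4-1 and the chromosome 6 copy of tRNA-Lys-TTT-1-2, and tRNA-Tyr-GTA-3-1 was called higher there.

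For the vault RNAs the changes lay side by side in the 3 comparisons. VTRNA1-2 had −2.28 ± 0.29 in cytoplasmic, −2.58 ± 0.38 in whole-cell and −1.91 ± 0.31 in nuclear RNA, and neither difference from the cytoplasm passed the test (edgeR adjusted p = 0.975 and 1.0). For tRNA-Lys-TTT-9-1 they were −2.68 ± 0.28, −2.20 ± 0.31 and −1.13 ± 0.26. The difference from the nucleus, −1.41, had an unadjusted p of 0.00271 and did not pass the adjusted test (edgeR adjusted p = 0.958). For the snaR-A row at the RefSeq gene SNAR-A3 (SNAR-A14 in the table) they were −1.02 ± 0.46, −2.53 ± 0.47 and −2.28 ± 0.37, and the difference of 1.38 from the nucleus did not pass either (edgeR adjusted p = 0.958). A p that misses the threshold does not show that the changes were equal.

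tRNA-Tyr-GTA-3-1 was the row of at most 500 nt that differed. The row held 586, 316 and 1052 counts in control and 171, 159 and 170 in siSSB cyto, but 64, 44 and 64 in control and 167, 203 and 175 in siSSB nuclear RNA. It was thus lower in each siSSB cytoplasmic library and higher in each siSSB nuclear library. The log2 fold change was −1.95 ± 0.31 in the cytoplasm, 1.59 ± 0.28 in the nucleus and −1.20 ± 0.37 in whole-cell RNA, and the difference between cytoplasm and nucleus was −3.40 ± 0.48 (edgeR adjusted p = 0.000273). That difference passed the test in each of 22 alternatives, with values of −3.98 to −3.26. The gene has no other tested row with the same sequence, which is printed here as RefSeq gives the gene, intron included.
tRNA-Tyr-GTA-3-1, chr6:26577104-26577192 (+ strand): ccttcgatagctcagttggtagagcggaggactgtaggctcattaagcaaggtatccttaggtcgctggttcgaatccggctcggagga
The other tyrosine rows that fell did not share it: tRNA-Tyr-GTA-8-1 and tRNA-Tyr-GTA-4-1 had nuclear log2 fold changes of −0.79 ± 0.33 and −0.82 ± 0.29. The median over the tested tyrosine rows was −1.41 in the cytoplasm (13 rows), −1.36 in whole-cell RNA (13 rows) and −0.18 in the nucleus (11 rows).

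**Figure D5:**
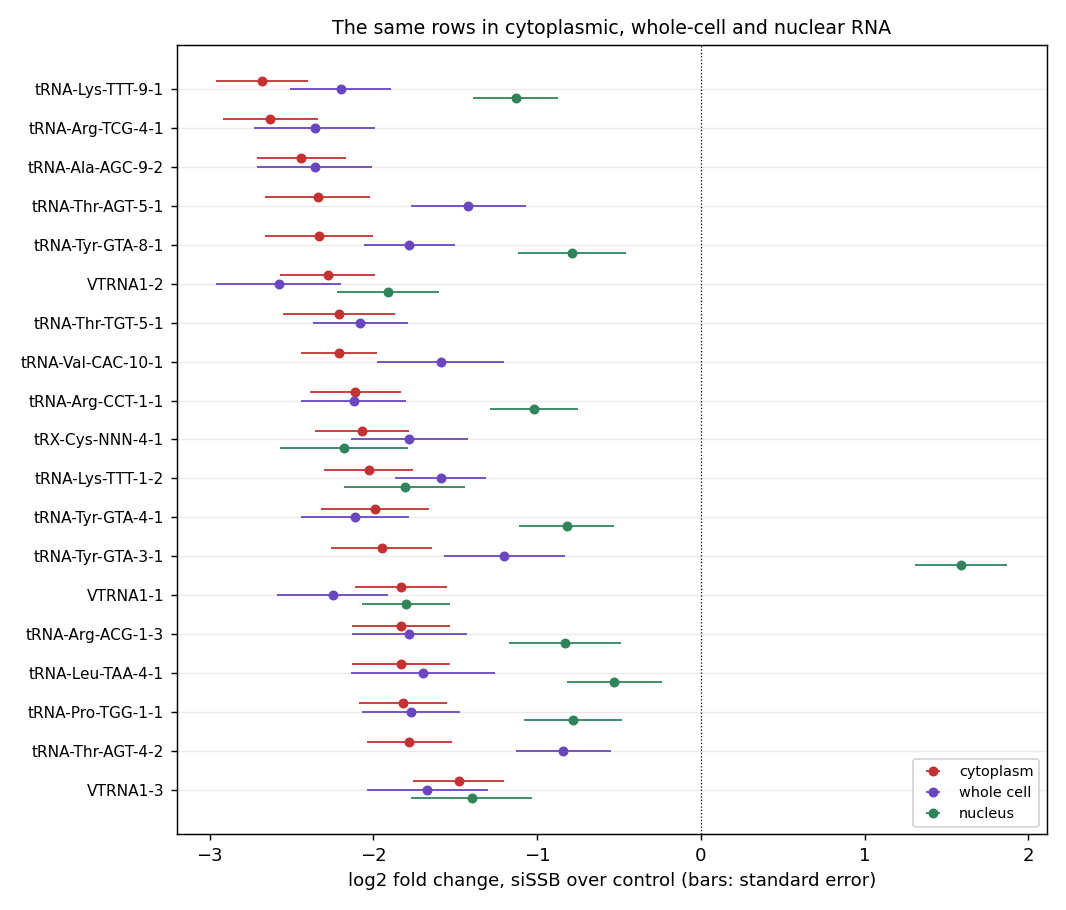
Log2 fold change (siSSB over control) with its standard error for the same rows in cytoplasmic (red), whole-cell (purple) and nuclear (green) RNA. A missing nuclear point is a row below the filter there. tRNA-Tyr-GTA-3-1 lies at −1.95 in the cytoplasm and at 1.59 in the nucleus.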

How the data were processed

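Small RNA libraries of siSSB and control HEK293T cells were taken as the authors deposited them, as 1 table of raw counts per noncoding RNA row (175935 rows, hg38). The submitters' notes name Bowtie2 and bedtools, and their versions, the treatment of reads with several positions and molecular identifiers are not given in the sources used here. Positions are printed 1-based. Of 393 small RNA names found once in the table and in GENCODE v44, 99.0% lay inside their row. R 4.3.3 was used. Tests were quasi-likelihood F-tests of edgeR 4.0.16 (with limma 3.58.1), after filterByExpr and with TMM factors, on the 6 cytoplasmic libraries, or on 12 for the interactions, and adjusted by Benjamini-Hochberg over all rows tested. DESeq2 1.42.0 was an alternative. CPM are scaled to the total of the rows tested. With 3 against 3 an exact permutation test cannot go below 0.1 and was not used. The cytoplasmic fit was tested on simulated data with 50 rows changed at each size. Only rows with a mean of at least 50 counts were changed, so recovery of rows with fewer counts was not tested. It recovered 36% of rows changed 2-fold, 84% at 3-fold, 98% at 4-fold and 100% at 8-fold. It also called 10 unchanged rows, with 20134 rows tested. The simulation gave all rows the same dispersion, and changes near 2-fold were often missed.

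Named rows were fixed target rows, single-copy Pol III RNAs, the row of highest mean per isotype and class, and up to 20 falling and 10 rising rows of at most 500 nt (5 and 5 of longer rows not carried by a small RNA) that passed the test, averaged 50 counts or more and had separate ranges. Others were named after their values were seen, among them copies of 1 gene sequence, tRX and methionine rows, tRNA-Thr-CGT-6-1 and the VTRNA3-1P row. The members, lists and alternatives were chosen with earlier results of these data known. Of the 442 tRNA rows 412 held 1 RefSeq tRNA (GRCh38.p14), and for the others the gene was taken as the row without 25 nt on each side.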

Additional observations from a re-analysis of the deposited data

Results flagged for a closer look

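The rows given here are those whose change in the cytoplasm differed from that in the nucleus by the interaction test (edgeR, adjusted p under 0.05). For tRNA-Tyr-GTA-3-1, described above, the difference was −3.40. lnc-PRKAB2-5, over the SSB pseudogene SSBL4P, held 6, 3 and 7 counts in control and 2493, 750 and 2108 in siSSB cyto, and 1, 4 and 2 in control and 10, 7 and 13 in siSSB nuclear libraries, a difference of 6.37 ± 0.97 (edgeR adjusted p = 0.000955, and up to 0.945 over the alternatives, with 19 of 21 past the threshold). HSALNG0020274, over SSB exons, held 5, 1 and 4 against 13, 5 and 14 counts in the nucleus, a difference of 4.81 ± 0.83 (edgeR adjusted p = 0.00753, and up to 0.82, with 18 of 21). HSALNG0085924 held 2, 3 and 1 against 9, 10 and 5 counts in the nucleus, a difference of −3.96 ± 0.72 (edgeR adjusted p = 0.0133, and up to 0.391, with 14 of 21). In these 3 rows the nuclear control libraries are near the floor of 3 counts, so the size of the difference depends on the prior count of the fit.

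HSALNG0103479 on chromosome 14 held 176, 239 and 38 counts in control and 39, 12 and 115 in siSSB cyto, and 16, 15 and 16 in control and 458, 219 and 10 in siSSB nuclear libraries. Its difference was −5.23 ± 0.94 (edgeR adjusted p = 0.0133), but the siSSB and control ranges overlap in both fractions, and siSSB replicate 3 held the most counts of the siSSB libraries in the cytoplasm and the fewest in the nucleus. It passed the test in 12 of 21 alternatives.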

How the results depend on the processing

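In the cytoplasm 55 rows changed, and the number was 157 with DESeq2's Wald test, 34 with DESeq2 size factors, 148 with all 18 libraries in 1 fit, 13 with the class total and 13 with library size alone (9 of them lower in each), 116 with the miRNA total, 3 with the snoRNA total (0 lower), 248 without a filter beyond 1 count, 17 over rows of at most 500 nt fitted alone and 7 at an adjusted p under 0.01. Without 1 library it ran from 2 to 45, with 0 to 41 lower. The 19 tRNA rows that fell became 50 with DESeq2's Wald test, 12 with DESeq2 size factors, 45 with all 18 libraries, 6 with the class total, 6 with library size alone, 34 with the miRNA total, 0 with the snoRNA total, 53 without a filter and 4 at an adjusted p under 0.01, and 0 to 13 without 1 library. Fitted alone, rows of at most 500 nt gave 17 lower rows, and 0 to 12 without 1 library (chosen after seeing the data). The difference from whole-cell RNA went from 0 to 10 rows without a filter. The difference from the nucleus, 5 rows, was 3 with DESeq2's Wald test, 14 with the miRNA total, 3 with the snoRNA total, 12 without a filter and 1 over rows of at most 500 nt, and 1 to 24 without 1 library. The causes were not tested. With the replicate number as a replicate block the cytoplasm gave 4 rows, all higher, and 0 of them tRNA. Deviations of libraries with the same number from their group means correlated at −0.346, −0.594 and −0.734 over 8742 rows. With 3 libraries per group the deviations sum to 0 within each group, which ties the correlations to each other. They therefore cannot tell whether the numbers pair the libraries. Across numbers, control 3 with siSSB 2 correlated at 0.804, control 1 with siSSB 3 at 0.770 and control 2 with siSSB 1 at 0.348. Control 2 with siSSB 3 had 0.321, control 3 with siSSB 1 −0.01 and control 1 with siSSB 2 −0.592. Whether the groups share a source of spread that the unpaired test leaves out was not tested. Of 455 values of the 29 named rows that changed, 244 kept their call, 211 lost it and 0 changed direction. The 45 other named rows gained a call in 9 of 720 values (VTRNA1-3, tRNA-Lys-TTT-7-1 and tRNA-Ser-TGA-1-1) and changed sign, never with a call, in 75. Named rows over 500 nt have no value where those of at most 500 nt were fitted alone.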

Other observations

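Among miRNAs, chosen here after their values were seen, MIR4521 on chromosome 17 held 528, 479 and 542 counts in control and 146, 101 and 256 in siSSB cyto, without overlap, and did not pass the test (−1.72 ± 0.37, edgeR adjusted p = 0.103). On the other side MIR7706 held 39, 29 and 32 against 78, 66 and 86 counts (1.10 ± 0.27, edgeR adjusted p = 0.158), and MIR210, a miRNA known to be induced by low oxygen, held 73, 72 and 136 against 193, 135 and 201 (0.88 ± 0.25, edgeR adjusted p = 0.275). Neither passed.

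Longer rows outside the naming rule, all under a mean of 50 counts, also fell. LINC02260 on chromosome 4 held 88, 44 and 73 against 13, 10 and 19 counts (−2.36 ± 0.35, edgeR adjusted p = 0.0331), and lnc-GRIN3A-4 on chromosome 9 held 25, 27 and 52 against 6, 7 and 9 (−2.25 ± 0.32, edgeR adjusted p = 0.0331). AL354702.2 on chromosome 1 held 26, 21 and 62 against 11, 4 and 6 (−2.36 ± 0.39, edgeR adjusted p = 0.0496).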
